A study of Mus musculus with 19 samples.

Results

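Immediate early genes are transcribed within minutes of a growth factor, synaptic or stress signal and need no new protein synthesis for it. The 10 members described here are Egr1, Egr2, Fos, Fosb, Junb, Atf3, Nr4a1, Ier2, Dusp1 and Btg2, out of 26621 genes in the deposited RNA-seq count table of mouse neural progenitor cells (NPCs). They were chosen by name as genes induced by activity and growth factors, and selected on measured values too, because Egr1 and Egr2 differed between 2 sets of libraries in their difference between genotypes. Differences between genotypes in these RNA-seq libraries are therefore given as descriptions and support nothing. The difference between library sets is not named in that choice, but the list was drawn up with earlier results of these libraries known, so its direction is not independent evidence either.

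Signals from receptor tyrosine kinases such as the FGF and EGF receptors reach these genes mainly through the kinases ERK1 and ERK2, which phosphorylate the ternary complex factors that sit with serum response factor (SRF) on a motif called the CArG box. Calcium and cAMP act mainly through CREB at the cAMP response element. The products are transcription factors of the EGR, FOS, JUN, ATF and NR4A families, together with proteins that limit the response, such as the MAP kinase phosphatase DUSP1. In the cortex they are best known as marks of recent neuronal activity, and in dividing progenitors as part of the response to mitogens.

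The cells were NPCs of the cerebral cortex taken at embryonic day 17.5, cultured on Matrigel in medium with bFGF and EGF, each at 20 ng/mL, and passaged with Accutase. Both genotypes had this treatment. They carried a Mettl8 knockout (cKO; the samples' titles call it conditional) or were wild type (WT). Mettl8 encodes a mitochondrial methyltransferase that makes 3-methylcytidine (m3C) in tRNA. What deletes the gene, and whether replicates were separate animals or cultures, is not given in the labels, so the spread behind each p-value is that between samples and may be technical. For RNA-seq, 300 ng of total RNA per sample went into SMART-seq2 libraries, 6 of cKO and 6 of WT cells. The library names fall into 2 sets. Set 2 held cKO replicates 3, 4, 5 and 6 with WT replicates 4, 5 and 6, and set 1 held cKO replicates 1 and 2 with WT replicates 1, 2 and 3. HAC-seq, a sequencing method in which hydrazine and aniline cut RNA at m3C and reads start beside the cut, used 8000 ng of total RNA and gave 3 cKO and 4 WT libraries.

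The cKO libraries held 14.5 ± 1.46 M counts and the WT libraries 17.0 ± 1.62 M (SD, n = 6 each), with a range of 11830839 to 18863781. The whole-gene level of Mettl8 was higher in every library labelled cKO than in any WT library. It was 59.4 to 80.5 CPM (counts scaled to library size, per 1 M) in cKO, against 35.9 to 58.5 CPM in WT. Reads were given as a total per gene, so loss of a part of Mettl8 cannot be read from them. They are therefore no check of the knockout, and why the level was higher in cKO was not tested. Set 2 and set 1 lay apart on the first principal component (41.2% of the variance). The library set cannot be told apart from anything else that was done set by set. Progenitor markers were present in every library: Sox2, a transcription factor of neural stem cells, ran from 52.9 to 81.4 CPM in cKO and from 60.3 to 80.2 CPM in WT, and Nes, which encodes their intermediate filament nestin, from 40.3 to 89.6 CPM in cKO and from 41.8 to 77.4 CPM in WT. Levels below are CPM after TMM scaling, which do not correct for gene length, so they are compared between libraries and not between genes. In bulk RNA a difference in level cannot tell fewer expressing cells from less RNA per cell.

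Promoter sequences of 8 of the 10 members were found in the RefSeq table (build GRCm38.p6), as windows from 250 bases before to 50 bases after an annotated start. Egr1 and Ier2 are named only. A member counts if any of its windows holds the motif, and Egr2 has several. A search on both strands for the CArG box found it in 1 of the 8 members, Egr2, and in 1.63% of 32851 promoter windows of the same length. The core of the cAMP response element, TGACG, was found in 8 of 8 members and in 20.8% of all windows. Its full palindrome TGACGTCA, which holds TGACG on both strands, was found in Dusp1 and Btg2 and in 1.79% of all windows. A match is a description of these letters and not evidence of a bound site. Only exact matches were sought, for the CArG box CC, 6 letters of A or T, then GG. A window without a match does not show that the gene lacks the motif, which may lie outside the window or differ in a letter. The 6 windows shown belong to members called between the library sets below, of which Btg2 went the other way. Those of Junb and Atf3, which few reads covered, are not shown. The windows run 5′ to 3′ on the gene's strand, with every match in capitals.

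Egr2 has several annotated starts, and the window shown (chr10:67537619-67537918, plus strand) holds a CArG box that begins 72 bases before the start, with TGACG on either side of it, beginning 111 and 55 bases before the start.
Egr2: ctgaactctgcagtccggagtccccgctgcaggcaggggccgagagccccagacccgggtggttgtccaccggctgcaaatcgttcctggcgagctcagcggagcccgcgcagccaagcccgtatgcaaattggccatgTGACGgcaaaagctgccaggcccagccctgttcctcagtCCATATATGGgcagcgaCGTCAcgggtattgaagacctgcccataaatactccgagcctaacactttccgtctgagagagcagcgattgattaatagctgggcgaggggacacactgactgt
The Fos window (chr12:85473640-85473939, plus strand) holds TGACG at 129 and 66 bases before the start.
Fos: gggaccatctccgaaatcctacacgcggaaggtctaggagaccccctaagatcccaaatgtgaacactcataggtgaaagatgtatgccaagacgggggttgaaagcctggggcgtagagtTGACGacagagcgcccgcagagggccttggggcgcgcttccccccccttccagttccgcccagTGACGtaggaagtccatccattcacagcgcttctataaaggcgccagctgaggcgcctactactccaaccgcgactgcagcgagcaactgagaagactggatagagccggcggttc
In the Fosb window (chr7:19309996-19310295, minus strand) there is 1 match, 60 bases before the start.
Fosb: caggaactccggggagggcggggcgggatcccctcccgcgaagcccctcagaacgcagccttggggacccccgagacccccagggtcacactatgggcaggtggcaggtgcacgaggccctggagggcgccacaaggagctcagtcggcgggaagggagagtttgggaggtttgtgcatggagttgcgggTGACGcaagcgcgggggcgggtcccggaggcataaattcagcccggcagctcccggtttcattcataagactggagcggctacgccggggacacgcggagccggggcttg
Nr4a1 (chr15:101266596-101266895, plus strand) has 4 matches, all on the opposite strand, at 233, 213, 69 and 40 bases before the start.
Nr4a1: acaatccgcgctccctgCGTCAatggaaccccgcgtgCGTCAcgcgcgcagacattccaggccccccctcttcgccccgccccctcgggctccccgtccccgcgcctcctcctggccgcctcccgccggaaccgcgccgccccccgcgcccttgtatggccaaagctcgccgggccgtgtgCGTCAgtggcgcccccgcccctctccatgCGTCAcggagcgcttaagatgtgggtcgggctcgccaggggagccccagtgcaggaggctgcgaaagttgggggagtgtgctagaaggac
Dusp1 (chr17:26508423-26508722, minus strand) has TGACG at 191 bases and the full palindrome at 143 bases before the start.
Dusp1: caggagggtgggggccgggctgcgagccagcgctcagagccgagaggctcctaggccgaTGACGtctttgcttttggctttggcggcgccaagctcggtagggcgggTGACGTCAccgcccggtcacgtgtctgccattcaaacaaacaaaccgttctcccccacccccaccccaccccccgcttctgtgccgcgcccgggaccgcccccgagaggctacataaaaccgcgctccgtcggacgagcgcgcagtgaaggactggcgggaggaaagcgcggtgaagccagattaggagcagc
Btg2 (chr1:134079106-134079405, minus strand) has the full palindrome 166 bases before the start.
Btg2: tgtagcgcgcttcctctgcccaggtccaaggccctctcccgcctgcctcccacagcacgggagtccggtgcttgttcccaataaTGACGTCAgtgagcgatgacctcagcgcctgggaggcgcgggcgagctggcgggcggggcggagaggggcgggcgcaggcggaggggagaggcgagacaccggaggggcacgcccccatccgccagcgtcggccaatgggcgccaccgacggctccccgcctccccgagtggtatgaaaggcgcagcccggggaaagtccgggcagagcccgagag

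Nearly all members stood higher in set 2 than in set 1, in both genotypes. Of the 10 members, 8 were called higher (edgeR's quasi-likelihood test with genotype in the model, Benjamini-Hochberg adjusted p under 0.05 over 14178 genes), Btg2 was called lower and Atf3 was not called. Across all genes tested 41.1% were called, 20.4% higher and 20.8% lower, and the median log2 difference was 2.14 over the members, against 0.01 over all genes. Every library of set 2 lay above every library of set 1 in the 8 members called higher, and below in Btg2. Among all genes tested the shares were 11% above and 11% below. All 10 members passed the filter on low counts, but Fosb and Junb passed it through set 2 alone and Atf3 reached its level of 0.647 CPM in 1 of 5 set 1 libraries, so a higher level in set 2 of these 3 is in part fixed by the filter. The other 7 had at least 10 counts in every set 1 library. Of those 7, 6 were called higher, where 20.6% of the 12134 genes with such counts were.

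**Figure D1:**
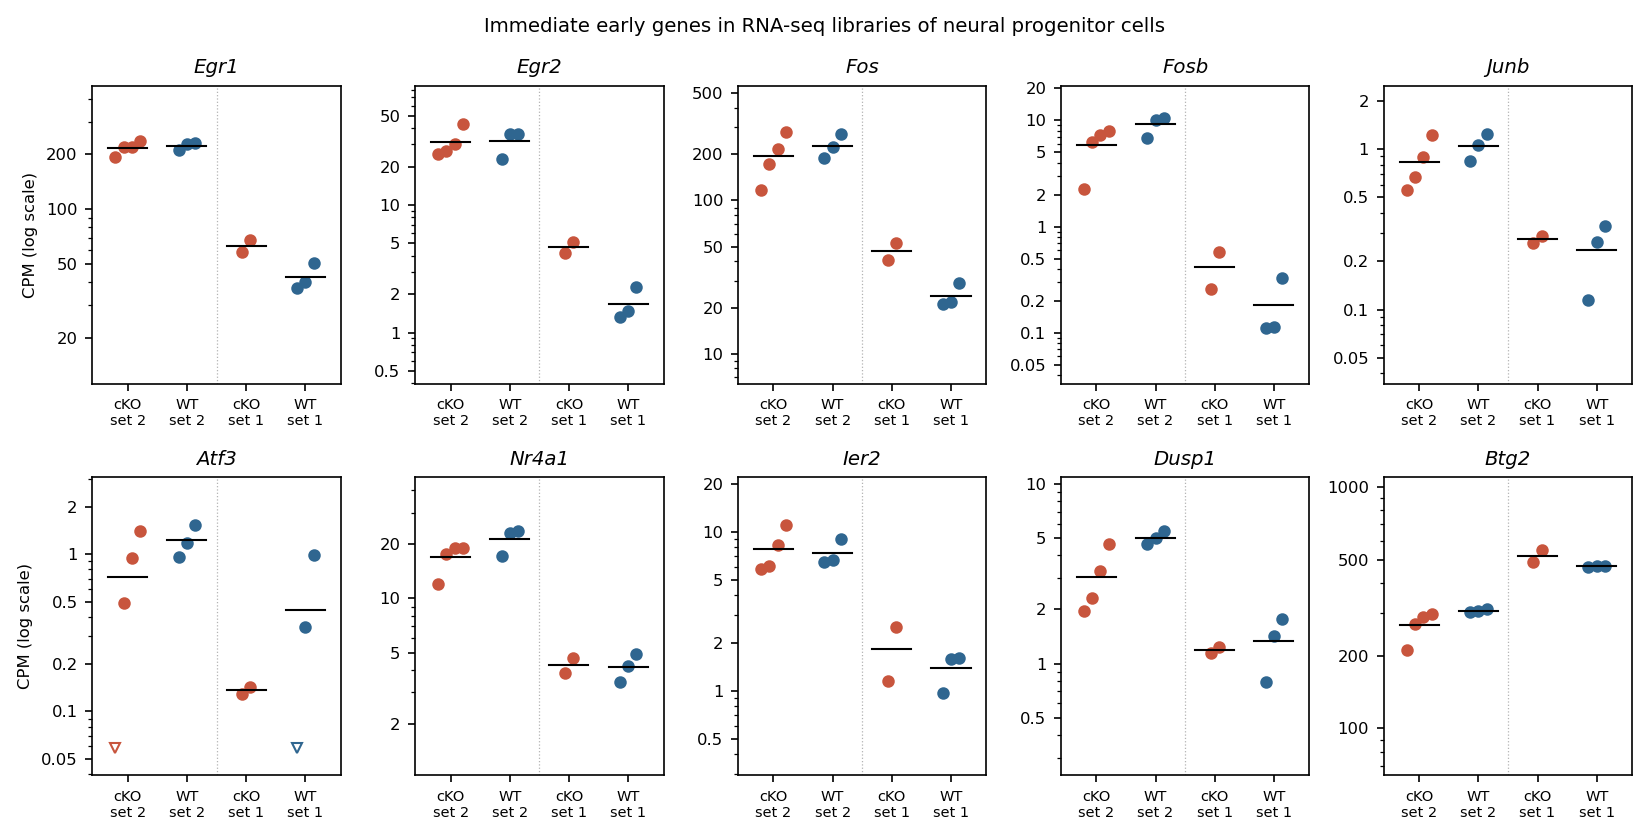
Levels of the 10 members in 12 RNA-seq libraries, as CPM on a log scale, in cKO (red) and WT (blue) libraries of set 2 and set 1. Each point is a library, bars are group means, and open triangles at the foot mark libraries with 0 counts. In 8 members all points of set 2 lie above those of set 1, in Btg2 they lie below, and in Atf3 they overlap.

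Egr1 (ENSMUSG00000038418, chromosome 18, 34861207 to 34864956), a zinc finger transcription factor that ERK signalling induces, had 236, 192, 218 and 219 CPM in the set 2 cKO libraries and 226, 211 and 230.3 CPM in the set 2 WT libraries. Set 1 had 68.2 and 58.3 CPM in cKO and 40.2, 37.1 and 51.2 CPM in WT. The lowest set 2 library and the highest set 1 library, cKO replicate 4 and cKO replicate 1, were far apart. Set 2 averaged 219 ± 14.3 CPM (SD, n = 7) and set 1 51.0 ± 12.8 CPM (SD, n = 5), a log2 difference of 2.09 (SE 0.108, adjusted p = 2.37e-11, edgeR). The 4 groups fell in the order cKO set 2 and WT set 2, which overlapped, then cKO set 1, then WT set 1.

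Egr2 (ENSMUSG00000037868, chromosome 10, 67534469 to 67542188), the related factor best known for its role in hindbrain patterning and myelination, showed a larger difference on the log scale. Its set 2 libraries held 43.2, 26.7, 30.2 and 25.0 CPM in cKO and 36.0, 22.9 and 36.2 CPM in WT. The set 1 libraries held 4.22 and 5.09 CPM in cKO and 2.26, 1.48 and 1.32 CPM in WT. The sets did not overlap, and their means differed 10.9-fold, 31.5 ± 7.30 CPM (SD, n = 7) in set 2 and 2.87 ± 1.69 CPM (SD, n = 5) in set 1 (log2 difference 3.46, SE 0.248, adjusted p = 2.50e-09, edgeR). The RefSeq gene Gm32255 overlaps Egr2, and the sources do not say whether counting used strand, so reads of the pair may not be separated.

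Fos (ENSMUSG00000021250, chromosome 12, 85473890 to 85477274), which with JUN proteins forms the AP-1 factor, had 282, 117, 172 and 216 CPM in set 2 cKO and 189, 224 and 271 CPM in set 2 WT. In set 1 it had 52.6 and 40.8 CPM in cKO and 28.9, 21.9 and 21.1 CPM in WT. Its lowest set 2 library, cKO replicate 4, still lay above the highest set 1 library, cKO replicate 1. The log2 difference was 2.67 (SE 0.221, adjusted p = 1.62e-08, edgeR). Its relative Fosb (chromosome 7, 19302696 to 19310118) had the largest difference of the members. Fosb passed the filter on low counts through set 2 alone, so its higher level there is in part fixed by the filter. Set 2 held 7.94, 2.24, 7.22 and 6.23 CPM in cKO and 6.86, 10.1 and 10.6 CPM in WT, or 27 to 189 counts. In set 1 all 5 libraries held 8 counts or fewer, with 0.260 and 0.573 CPM in cKO and 0.110, 0.114 and 0.329 CPM in WT. The fitted log2 difference of 4.81 (SE 0.404, adjusted p = 1.87e-08, edgeR) rests on these few counts in set 1.

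Junb and Atf3 were measured by few reads in both sets. Junb (chromosome 8, 84976909 to 84978748), an AP-1 partner of the FOS proteins, had 8, 8, 14 and 19 counts in set 2 cKO and 19, 20 and 14 counts in set 2 WT, against 4 and 4 counts in set 1 cKO and 6, 2 and 4 counts in set 1 WT. This was 0.925 ± 0.264 CPM (SD, n = 7) in set 2 and 0.251 ± 0.0815 CPM (SD, n = 5) in set 1, and the log2 difference of 1.88 passed the threshold (SE 0.458, adjusted p = 2.66e-03, edgeR). With the cKO libraries alone it was 1.60 and did not pass (adjusted p = 0.121, with a range of 6.50e-04 to 0.709 over the 20 alternatives). Atf3 (chromosome 1, 191170296 to 191183333), a stress-induced factor of the ATF family, had 7, 0, 15 and 22 counts in set 2 cKO and 18, 29 and 16 counts in set 2 WT. Set 1 had 2 and 2 counts in cKO and 18, 6 and 0 counts in WT. The counts of 0 allow up to 0.249 CPM in cKO replicate 4 and 0.197 CPM in WT replicate 3 (3 counts, counting error only). These limits take each count as independent. Small counts were mostly even, so the limits may be too low. The sets overlapped because cKO replicate 4 was low in set 2 and WT replicate 1 high in set 1, and the log2 difference of 1.72 was not called (SE 0.702, adjusted p = 0.0567, edgeR). It was called in 6 of 20 alternatives, among them the fits without WT replicate 1 (2.56) and without cKO replicate 4 (1.84), with adjusted p from 0.00876 to 0.171 over the 20 alternatives.

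Nr4a1 and Ier2 stood 4.47 and 4.87 times higher in set 2 by their means, in libraries of both genotypes. Nr4a1 (chromosome 15, 101253902 to 101274795), an orphan nuclear receptor, had 19.0, 11.97, 17.6 and 19.1 CPM in set 2 cKO and 17.2, 23.6 and 23.0 CPM in set 2 WT, against 3.83 and 4.66 CPM in set 1 cKO and 4.19, 4.91 and 3.42 CPM in set 1 WT. Set 1 was tight in this gene, at 4.20 ± 0.604 CPM (SD, n = 5), and the log2 difference was 2.19 (SE 0.156, adjusted p = 2.14e-09, edgeR). Ier2 (chromosome 8, 84661331 to 84662852), a nuclear protein of the early response, had 11.01, 5.82, 6.08 and 8.28 CPM in set 2 cKO and 8.95, 6.49 and 6.67 CPM in set 2 WT. It had 2.53 and 1.15 CPM in set 1 cKO and 1.60, 0.971 and 1.58 CPM in set 1 WT. The lowest set 2 library was again cKO replicate 4, and the log2 difference was 2.25 (SE 0.236, adjusted p = 3.38e-07, edgeR).

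The members that restrain signalling or growth did not all move the same way. Dusp1 (chromosome 17, 26505591 to 26508472), the phosphatase that switches off MAP kinases, had 4.60, 2.33, 1.96 and 3.27 CPM in set 2 cKO and 4.64, 5.43 and 4.99 CPM in set 2 WT. Set 1 held 1.23 and 1.15 CPM in cKO and 1.76, 1.43 and 0.790 CPM in WT. The closest libraries of the sets, cKO replicate 5 and WT replicate 1, were separated by little, and the log2 difference was 1.67 (SE 0.266, adjusted p = 5.19e-05, edgeR).

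Btg2 (ENSMUSG00000020423, chromosome 1, 134074865 to 134079155), an antiproliferative gene that p53 induces and that marks progenitors about to make neurons, was the 1 member lower in set 2. It had 299, 211, 271 and 289 CPM in set 2 cKO and 314, 302 and 306 CPM in set 2 WT. Set 1 had 549 and 491 CPM in cKO and 473, 467 and 469 CPM in WT. The highest set 2 library, WT replicate 4, lay well below the lowest set 1 library, WT replicate 2. Set 2 averaged 285 ± 35.2 CPM (SD, n = 7) and set 1 489.8 ± 34.2 CPM (SD, n = 5), a 1.72-fold higher level in set 1 (log2 difference -0.78, SE 0.0779, adjusted p = 1.92e-07, edgeR).

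Within each genotype the log2 difference between sets kept its sign in all 10 members. In cKO libraries set 2 over set 1 was 1.77 for Egr1, 2.75 for Egr2, 2.08 for Fos and 3.83 for Fosb. In WT libraries it was 2.38 for Egr1, 4.21 for Egr2, 3.25 for Fos and 5.63 for Fosb. For Nr4a1 it was 2.00 in cKO and 2.35 in WT, for Ier2 2.07 in cKO and 2.41 in WT, for Dusp1 1.35 in cKO and 1.90 in WT, and for Junb 1.59 in cKO and 2.11 in WT. Btg2 had -0.96 in cKO and -0.61 in WT, and Atf3 2.36 in cKO and 1.41 in WT. The SE was 1.23 in cKO and 0.883 in WT for Atf3, and 0.709 in cKO and 0.626 in WT for Junb. For Fosb, Junb and Atf3 the sign is in part fixed by the filter on low counts.

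**Figure D2:**
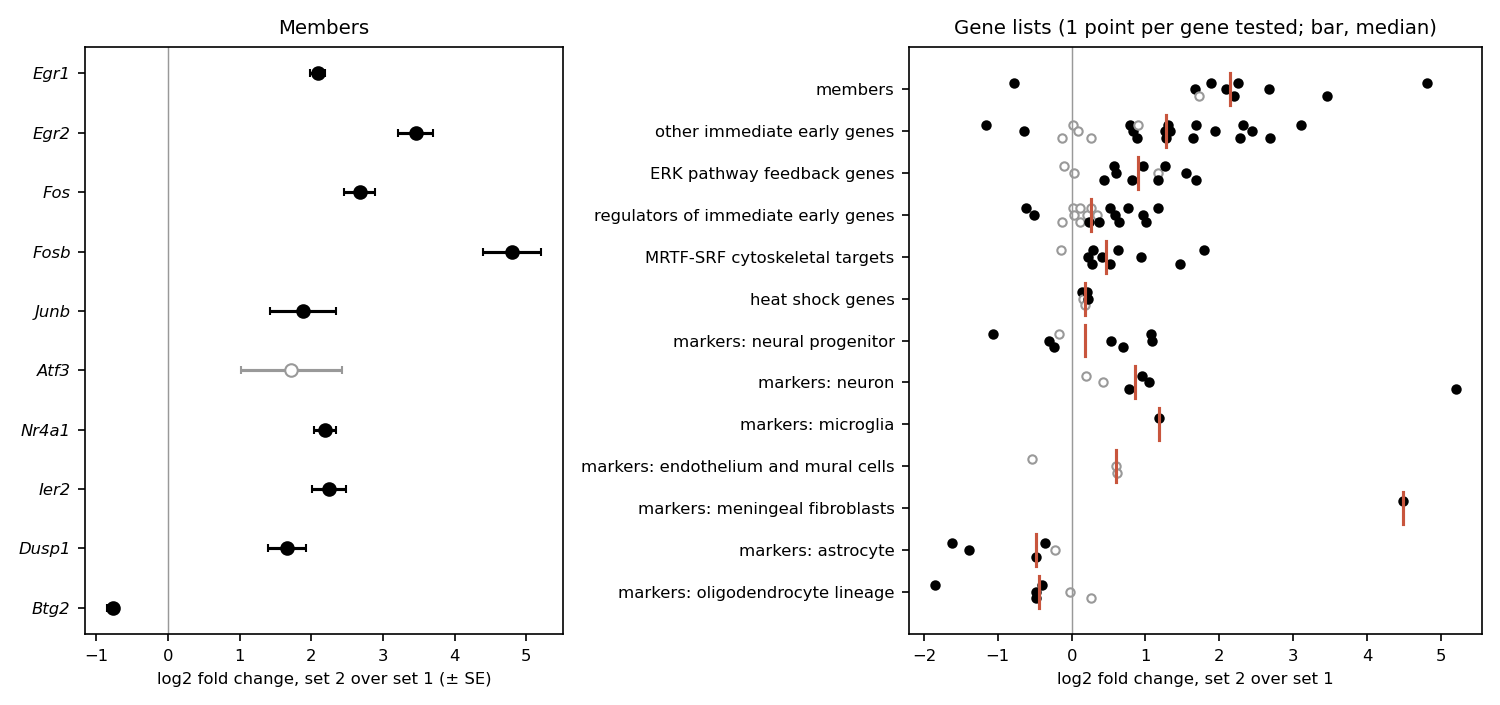
Log2 fold change of set 2 over set 1. The left panel gives the 10 members with the standard error, and the right panel 1 point for each gene tested in each list with a red bar at the list's median; filled points passed the threshold and open points did not. The members' median of 2.14 lies to the right of the medians of 1.27 for other immediate early genes and 0.90 for ERK pathway feedback genes, and the Btg2 point lies left of 0. The bar of the meningeal list, which is Dcn alone, lies further right at 4.48. The neuron marker Stmn2, at 5.21, lies right of every member. Higher levels of Fosb, Junb, Atf3 and Dcn in set 2 are in part fixed by the filter on low counts.

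Other genes of the early response were listed to set beside the members, again with earlier results known. Counts in this list and the later ones stand beside 20.4% of all genes tested called higher in set 2 and 20.8% lower. Of 31 other immediate early genes 22 could be tested, and 15 were called higher in set 2 and 2 lower, with a median log2 difference of 1.27. Genes under the filter's level in set 1 could pass only through set 2, so such calls are in part fixed by the filter. Sik1, called higher with a set 1 mean of 0.345 CPM, is near this case. Klf10, a TGF-beta inducible zinc finger factor, averaged 907 ± 80.3 CPM in set 2 and 280.4 ± 21.4 CPM in set 1 (SD, n = 7 and n = 5; log2 difference 1.68, adjusted p = 1.49e-12, edgeR). Ier3, an early gene that affects survival, averaged 77.5 ± 11.9 CPM in set 2 and 9.11 ± 2.25 CPM in set 1 (3.11, adjusted p = 5.45e-12, edgeR), and Klf6 averaged 272 ± 11.4 CPM in set 2 and 109 ± 12.3 CPM in set 1 (1.33, adjusted p = 9.86e-12, edgeR). The 2 called lower were Ier5 (-0.64) and Ptgs2 (-1.16), which encodes cyclooxygenase-2. The 9 that were not tested, among them Egr3, Egr4 and the neuronal factor Npas4, stayed below 1 CPM in every library.

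Of 12 feedback genes of the ERK pathway tested, 9 were called higher in set 2 and 0 lower, with a median of 0.90. The 3 not called were Etv1 (-0.10), Etv4 (0.03) and Dusp5 (1.16). Spry4, an inhibitor of receptor tyrosine kinase signalling, averaged 553 ± 84.9 CPM in set 2 and 187 ± 21.4 CPM in set 1 (SD, n = 7 and n = 5; log2 difference 1.55, adjusted p = 6.52e-10, edgeR). Its relative Spry1 had a log2 difference of 1.17 (adjusted p = 3.51e-06, edgeR) and Phlda1, a growth factor induced gene, 1.26 (adjusted p = 4.89e-06, edgeR). Across all genes tested 20.4% were called higher and 20.8% lower, with a median of 0.01. Among the 19 upstream regulators 9 were called higher and 2 lower, with a median of 0.26. These included the SRF partner Elk3 (1.17, adjusted p = 3.48e-07, edgeR), Mapk3, which encodes ERK1 (0.58, adjusted p = 1.23e-04, edgeR), and the EGR corepressor Nab1 (0.76, adjusted p = 1.25e-04, edgeR).

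SRF also serves cytoskeletal genes through the MRTF coactivators, and of 10 such targets tested 9 were called higher in set 2 and 0 lower, with a median of 0.46. The actin-binding protein gene Tagln2 averaged 229 ± 23.1 CPM in set 2 and 66.8 ± 6.72 CPM in set 1 (SD, n = 7 and n = 5; log2 difference 1.80, adjusted p = 3.55e-12, edgeR). Tropomyosin gene Tpm1 had a log2 difference of 0.63 (adjusted p = 2.18e-07, edgeR) and calponin gene Cnn2 1.47 (adjusted p = 6.12e-06, edgeR). Heat shock genes differed little. Of 5 tested, 3 were called higher, with log2 differences of 0.23 for Hsp90aa1, 0.20 for Hspe1 and 0.14 for Hspa8. The stress-induced Hspa1a and Hspb1 had no count in any library. How reads were counted is not given, so these zeros do not show that the RNA was absent.

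Markers of other cell types differed between the sets as well, and their part in the members' difference was not tested. Of all genes tested 20.4% were called higher in set 2 and 20.8% lower. Of 6 neuron markers 4 were called higher in set 2 and 0 lower, with a summed level of 171 to 329.9 CPM in set 2 and 114 to 144 CPM in set 1. Stmn2, a microtubule regulator of growing axons, averaged 49.3 ± 15.0 CPM in set 2 and 1.38 ± 0.462 CPM in set 1 (SD, n = 7 and n = 5). Astrocyte markers were lower in 4 of 5 genes, with sums of 3575 to 5933 CPM in set 2 and 6834 to 7853 CPM in set 1. Oligodendrocyte lineage markers were lower in 4 of 6, with sums of 373 to 482 CPM in set 2 and 584 to 629 CPM in set 1. Of the 8 progenitor markers 4 were called higher and 3 lower (Sox2, Pax6 and Hes5). Their sums were 7843 to 10551 CPM in set 2 and 5951 to 7177 CPM in set 1. Most of each sum was Fabp7, at 7161 to 9779 CPM in set 2 and 5444 to 6659 CPM in set 1, so the sum does not stand for the list.

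Markers of cells from outside the neural lineage were low. Microglial markers summed to 3.76 to 7.91 CPM in set 2 and 1.65 to 3.51 CPM in set 1; of 6, C1qa had no count, 4 more stayed below 1 CPM, and P2ry12 was called higher (log2 difference 1.18). Endothelial and mural markers summed to 2.08 to 3.98 CPM in set 2 and 2.00 to 3.88 CPM in set 1, and 0 of 3 tested were called (edgeR). Of the 5 meningeal fibroblast markers 1 was tested, Dcn, which was called higher at 0.715 ± 0.669 CPM in set 2 and 0.0228 ± 0.0511 CPM in set 1 (SD, n = 7 and n = 5). Dcn lay under the filter's level of 0.647 CPM in set 1 and passed through set 2. Its higher level there is therefore in part fixed by the filter. The meningeal sum reached 3.49 CPM in set 2 and 0.527 CPM in set 1.

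The study's own comparison is of genotypes, and with library set in the model 0 of 10 members were called between cKO and WT, where the background was 0% of 14178 genes called higher or lower (839 genes had an unadjusted p under 0.05, and DESeq2 called 2 genes). The log2 fold change of cKO over WT with set in the model was 0.20 for Egr1, 0.37 for Egr2, 0.23 for Fos and 0.19 for Ier2. It was below 0 for the other 6, at -0.06 for Btg2, -0.17 for Junb, -0.22 for Nr4a1, -0.41 for Fosb, -0.54 for Dusp1 and -0.99 for Atf3.

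Taken set by set, the genotype difference of Egr1, Egr2 and Fos was near 0 or below in set 2 and above 0 in set 1, which is what Egr1 and Egr2 were chosen for. In set 2 the cKO mean was 217 ± 17.9 CPM (SD, n = 4) and the WT mean 222 ± 10.03 CPM (SD, n = 3) for Egr1, and 31.3 ± 8.23 CPM in cKO and 31.7 ± 7.63 CPM in WT for Egr2. In set 1 Egr1 averaged 63.3 ± 6.97 CPM in cKO (SD, n = 2) and 42.8 ± 7.42 CPM in WT (SD, n = 3), and Egr2 4.65 ± 0.616 CPM in cKO and 1.69 ± 0.503 CPM in WT. Both set 1 cKO libraries lay above the 3 WT libraries, whereas the set 2 genotypes overlapped.

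On the log2 scale cKO over WT was -0.04 (SE 0.0980) in set 2 and 0.57 (SE 0.122) in set 1 for Egr1, and -0.02 (SE 0.193) in set 2 and 1.44 (SE 0.316) in set 1 for Egr2. For Fos, which the choice did not name for this contrast but whose values come from it, the pair was -0.21 (SE 0.198) in set 2 and 0.96 (SE 0.254) in set 1. Fosb had -0.63 in set 2 and 1.17 in set 1, Junb -0.32 in set 2 and 0.20 in set 1, and Nr4a1 -0.33 in set 2 and 0.02 in set 1. Ier2 had 0.09 in set 2 and 0.42 in set 1, Dusp1 -0.72 in set 2 and -0.17 in set 1, Btg2 -0.20 in set 2 and 0.15 in set 1, and Atf3 -0.75 in set 2 and -1.69 in set 1. The gap between these differences, set 2 minus set 1, was -0.60 (SE 0.157) for Egr1, -1.46 (SE 0.370) for Egr2 and -1.17 (SE 0.322) for Fos. For Ier2 and Atf3 its sign depended on 1 library: it was -0.34 for Ier2 and 0.35 without cKO replicate 1, and 0.94 for Atf3 and -0.37 without WT replicate 1 (-0.85 with limma-voom).

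Across all 14178 genes the interaction of genotype and library set called 0% with edgeR, higher or lower, and 0 of the 10 members (513 genes had an unadjusted p under 0.05, and DESeq2 called 2 genes). Without the filter on low counts the same test called 35 genes, with Egr1, Egr2 and Fos among them. That fit took every gene with a count (6309 of 26621 were at 0 throughout). Egr1 and Egr2 were chosen on this contrast, so these calls support nothing. Counted by overlap, the set 2 cKO libraries lay below all set 2 WT libraries in Dusp1 and Btg2 and above them in no member, where 3.94% of all genes lay below and 3.87% above. The set 1 cKO libraries lay above all set 1 WT libraries in Egr1, Egr2, Fos and Btg2 and below them in no member, where 8% of all genes lay above and 8.52% below. Nothing is read from these counts about the members.

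**Figure D3:**
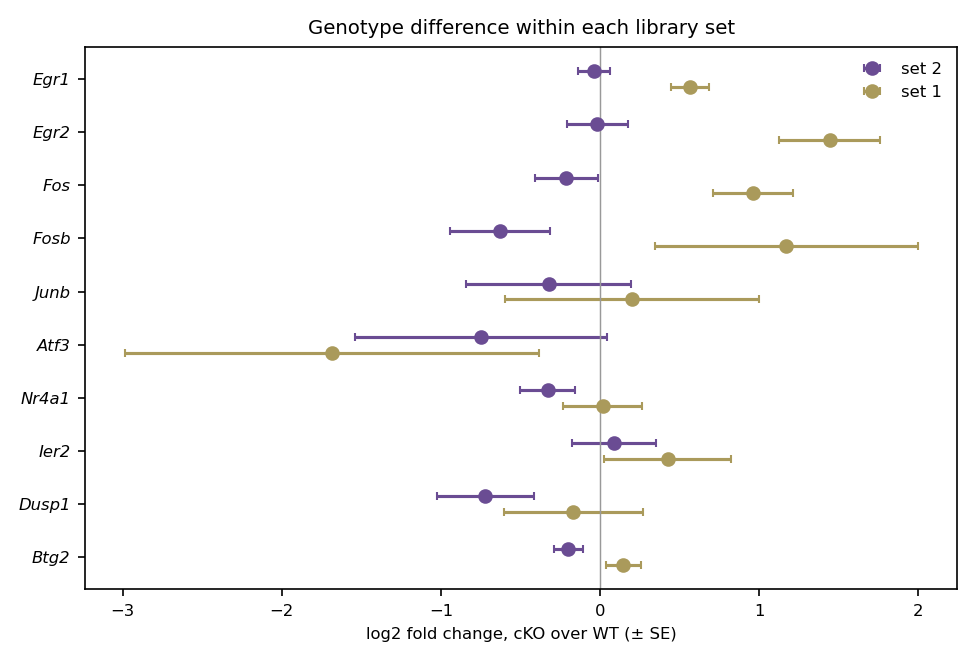
Log2 fold change of cKO over WT for each member within set 2 (purple) and within set 1 (tan), with standard errors from the fit of 4 groups. The set 1 points of Egr1, Egr2, Fos and Fosb lie right of 0 and their set 2 points at or left of 0; Atf3 is the 1 member whose set 2 point lies right of its set 1 point.

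No list of related genes held a gene called between genotypes (edgeR, 0% of all genes). Among other immediate early genes the largest fitted log2 fold changes of cKO over WT were -0.94 for Sik1, -0.83 for Csrnp1 and 0.37 for Maff, at means of 0.550, 0.629 and 1.74 CPM in cKO and 0.779, 0.927 and 1.27 CPM in WT. Among ERK feedback genes they were -0.22 for Spry1, 0.21 for Dusp5 and 0.21 for Dusp6, with Dusp6 at 251 ± 98.1 CPM in cKO and 189 ± 47.7 CPM in WT (SD, n = 6 each). Among the regulators they were -0.40 for the CREB coactivator Crtc3, -0.19 for Crem and 0.16 for Crtc2. The MRTF-SRF targets Cnn2, Flna and Tagln2 had -0.21, 0.12 and -0.10, and the heat shock genes Hspe1, Hsp90aa1 and Hspa8 had -0.08, 0.05 and -0.03.

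Single libraries set part of the spread. Within set 2 cKO replicate 4 was the lowest of the 7 libraries in 7 members, namely Egr1, Fos, Fosb, Atf3, Nr4a1, Ier2 and Btg2, and the highest in 0. It is also the library with the fewest counts in the study, 11830839 in all. In the same set cKO replicate 3 was the highest for Egr1, Egr2, Fos and Ier2. Within set 1 cKO replicate 1 was the highest for Egr1, Fos, Ier2 and Btg2, and WT replicate 3 the lowest for 5 members. Whether depth plays a part in the low values of cKO replicate 4 was not tested. How often each library was highest or lowest over all genes is not given, so these counts are not read as a trait of the members.

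Likeness of pattern was measured as Pearson's r of log2 CPM centred within library set over the 12 libraries, a description over points that share their libraries. Among the genes most like Egr1 were Gm12258 (0.93), Tshz3 (0.88), Kcnn4 (0.87) and Zfp810 (0.86). The genes most like Fos were 5730577I03Rik (0.94), Ifnar2 (0.89), LOC100862257 (0.89), Cage1 (0.86) and Tmem192 (0.85). Among the members, r with Fos was 0.78 for Btg2, 0.76 for Egr2, 0.73 for Egr1, 0.65 for Fosb and 0.57 for Ier2. It was 0.53 for Nr4a1, 0.49 for Dusp1, 0.34 for Atf3 and 0.20 for Junb. With Egr1, r was 0.73 for Fos, 0.70 for Egr2, 0.61 for Fosb, 0.61 for Ier2, 0.54 for Btg2 and 0.27 for Junb. For Nr4a1, Dusp1 and Atf3, r with Egr1 was -0.01, -0.09 and -0.19. By rank of r with Fos among 14177 genes, Btg2 was 39, Egr2 60, Egr1 93, Fosb 269 and Ier2 627. Nr4a1 ranked 922, Dusp1 1189, Atf3 2652 and Junb 4553. Centring by set keeps the genotype differences within a set, on which Egr1 and Egr2 were chosen. Their r with each other is therefore in part fixed by that choice. Fos had the same kind of difference in set 1, so its r with either is not independent of it.

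The HAC-seq libraries gave a second measure of 3 members, in libraries the choice did not use. The authors' table lists C sites that had read starts in every WT library, and the coverage of a gene's sites stands here for its abundance in the cleaved RNA. Because read starts in WT libraries alone decided which sites are listed, higher coverage in WT may be in part fixed by that choice. Egr1 had 32 sites on its strand, Btg2 3 and Fos 1. The other 7 members had 0, and 26 sites annotated with Dusp1 lay on the strand of the pseudogene Gm8225 and were left out. The labels give no library set for these libraries.

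Coverage of Egr1, averaged over its sites and scaled by library total, was 36.6, 38.8 and 59.9 in cKO, against 57.9, 53.0, 90.0 and 84.5 in WT. The genotypes overlapped because cKO replicate 3 lay above WT replicates 1 and 2. The log2 fold change of cKO over WT was -0.65 (SE 0.224) and was not called (limma, adjusted p = 0.127 over 5318 genes). Fos had 9.997, 18.5 and 22.5 in cKO and 20.5, 22.1, 37.2 and 22.1 in WT, a log2 fold change of -0.59 (SE 0.313, adjusted p = 0.219, limma). Btg2 had 25.8, 26.4 and 15.7 in cKO and 19.1, 23.1, 23.9 and 23.6 in WT, and its log2 fold change was -0.02 (SE 0.259, adjusted p = 0.967, limma).

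Of the 3 members 0 were called, and of all genes tested 0.226% were, 0.0376% higher and 0.188% lower (1515 genes had an unadjusted p under 0.05). The 12 genes called became 1457 without cKO replicate 2 and 1 to 34 with another library left out. The median over all genes was itself at -0.28. With scaling by the median of ratios that median was -0.0050, Egr1 stood at -0.37 (SE 0.283, adjusted p = 0.587, limma) and Fos at -0.32 (SE 0.351, adjusted p = 0.710, limma). Btg2 changed sign with this scaling, to 0.25 (SE 0.183, adjusted p = 0.564, limma).

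**Figure D4:**
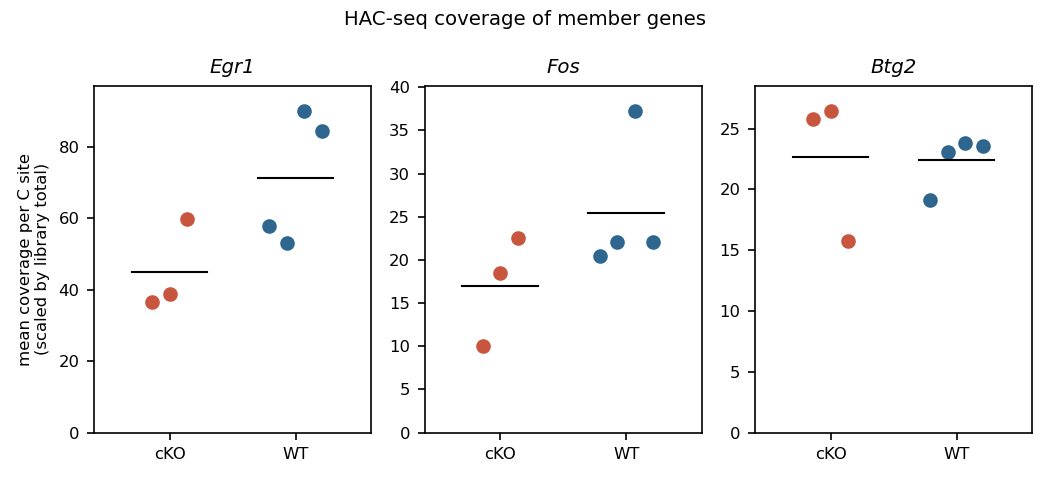
HAC-seq coverage of the 3 members with listed C sites, as the mean over a gene's sites scaled by library total, in 3 cKO (red) and 4 WT (blue) libraries. Points are libraries and bars group means. The genotypes overlap in all 3 genes; the Egr1 means are 45.1 in cKO and 71.4 in WT.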

How the data were processed

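RNA-seq and HAC-seq libraries of cultured mouse NPCs were analysed from the deposited tables. The submitters' processing notes name STAR 2.5.2a, Trimmomatic 0.32 and bcl2fastq 2.17.1.14, and the mouse builds GRCm38 (RNA-seq) and GRCm38.p6 (HAC-seq). How reads were counted, on which annotation and with or without strand, is not given in the sources used here. For RNA-seq the authors deposited raw counts per gene with no scaling, and 6309 of 26621 genes were at 0 throughout. Of the values between 1 and 10 only 17.4% were odd, against 50.1% of those between 101 and 1000, so an alternative divided all counts by 2. In the HAC-seq table the authors give, per the file headers, read starts and coverage as signal for C sites with more than 1 read start in each WT library, a cleavage fraction and a p-value, of which only the coverage was used. All sample columns were used and 0 were left out.

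Genotype, replicate and group were taken from the labels and the library set from the library names. In edgeR 4.0.16 under R 4.3.3, filterByExpr by genotype and set kept 14178 genes. After TMM scaling, set (with genotype as covariate), genotype (with set as covariate) and their interaction were tested by two-sided quasi-likelihood F tests with Benjamini-Hochberg adjustment over all genes and a threshold of 0.05. SE was taken from the F statistic. HAC-seq coverage was averaged over a gene's sites on its own strand and scaled by library total. Genes with a mean site coverage of at least 20 (5318 genes) were tested by limma 3.58.1 with an intensity trend on log2(coverage + 1), so folds of low genes are understated. Alternatives used DESeq2 1.42.0, limma-voom, other filters and scalings, a replicate block and each library left out. The steps were checked on simulated data.

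The members and lists were chosen with earlier results of these data known. Named beside all members were, from each list, the 3 tested genes with the smallest p between sets and the 3 with the largest genotype fold change, and the 5 genes most like Egr1 and Fos. Of these, 1 gene is not reported here. Genes named from the lists beyond that rule (Ier5, Ptgs2, Stmn2, P2ry12, Dcn, C1qa, Hspa1a, Hspb1, Egr3, Egr4, Npas4, Etv1, Etv4, Sox2, Nes, Fabp7, Pax6 and Hes5) were named after their values were seen.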

Additional observations from a re-analysis of the deposited data

Results flagged for a closer look

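In 53 groups of 4 to 7 libraries the highest or lowest library was set against its neighbours by Dixon's ratio, the gap to the nearest library over the whole range. Chance flags about 1 in 20 groups drawn from a single normal spread, and 3 were flagged here. Some groups joined 1 genotype over both library sets, whose levels mostly lay apart, so that rate does not hold for them. Btg2 in the 7 RNA-seq libraries of set 2 was lowest in cKO replicate 4, at 211 CPM, with a ratio of 0.582. Fos coverage in the 4 WT HAC-seq libraries was highest in WT replicate 3, at 37.2, with a ratio of 0.900. Btg2 coverage in the same 4 libraries was lowest in WT replicate 1, at 19.1, with a ratio of 0.844.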

How the results depend on the processing

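Between library sets, Egr1, Egr2, Fos, Fosb, Nr4a1, Ier2 and Dusp1 kept their direction and call in every alternative that gave a value (20 for Fosb, 21 for the others). Their sizes moved more: Egr2 ran over 2.76 to 4.85, Fos over 2.08 to 3.72, Fosb over 3.84 to 5.63 and Dusp1 over 1.36 to 3.34 (adjusted p up to 0.0428). Leaving out 1 library at a time gave 4976 to 5748 genes and 9 to 10 members, and the fits in cKO alone and WT alone, added after the data were seen, called 3403 and 3561 genes, with fewer libraries in each. Besides the fits named in the report, Atf3 was called with DESeq2 (1.81), without the filter (1.73), with halved counts (1.63) and with the filter by genotype alone (1.70, added later). For genotype, DESeq2 called 2 genes, the fit without the filter 65 and leaving out a library 0 to 1 (1 without WT replicate 3 or WT replicate 6). For the interaction, DESeq2 called 2 genes, and leaving out a library 0 to 1 (1 without cKO replicate 3). The fit without the filter called 35 with 3 members, Fos and the Egr1 and Egr2 chosen on this contrast. HAC-seq calls moved with every library left out: 1457 genes without cKO replicate 2 and 1 to 34 without any other, against 12. They were 20 and 23 with site coverage of at least 10 and 50 and 2 with the median of ratios. Btg2 coverage turned to 0.25 with the median of ratios, 0.0139 and 0.0090 without WT replicate 3 or 4, and 0.22 without cKO replicate 3 (range with 1 library left out -0.14 to 0.22). The cause of these changes was not tested.

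Replicate numbers did not pair the samples: same-numbered libraries of both genotypes correlated at -0.06 to 0.12 in RNA-seq (6 pairs) and -0.02 to 0.16 in HAC-seq (3 pairs) in their deviations from group means. With the number as a block, which leaves few libraries to separate sets from numbers, 991 genes were called between sets (7 members, without Junb at 1.10 and Btg2 at -0.55), 9 between genotypes, 2 genes and 1 member (Fos) for the interaction, and 118 in HAC-seq coverage, with Btg2 there at 0.0090. Counts below 10, as in Junb, Atf3 and Fosb in set 1, limit what these libraries can show.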
